A study of Mus musculus with 6 samples.

Results

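Plasma cells (PCs) are the antibody-secreting end point of B cell differentiation, and 8 genes that control that step or mark the surface of PCs were examined here. They were 6 regulators (Prdm1, Irf4, Xbp1, Ell2, Creb3l2 and Zbtb20) and 2 surface markers (Sdc1 and Cd93), taken as the rows of the deposited count table whose symbol was one of these names. The 8 symbols held 9 of the 39017 rows, because Zbtb20 was listed under 2 Ensembl identifiers.

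The table came from RNA-seq of induced germinal center B cells (iGBs), which are naive splenic B cells grown on irradiated 40LB fibroblasts that supply CD40L and BAFF, with IL-4, so that they take on features of germinal center B cells. Each of 6 C57BL6/J mice gave 1 library, harvested 3.5 days after plating, with IL-4 at 5 ng/ml per the labels, once the feeder cells had been depleted with anti-H2K beads. The study's text gives another IL-4 dose, and in one place another day, than these labels. The Control group was 3 mice of genotype Cg1-cre (Cγ1-cre) and the Prmt1-null group was 3 mice of genotype Cg1-cre Prmt1f/f, so that both groups carried Cre, and each group had 2 females and 1 male. The comparison asked how loss of PRMT1, the main enzyme that places asymmetric dimethyl groups on arginine, altered the transcriptome of these cells. Cre was driven from the Ighg1 locus, which becomes active once B cells are stimulated, so deletion follows activation. No age of the mice was given in the sources used here.

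In B cells the exit toward PCs rests on a small circuit. IRF4 accumulates with stimulation and, at high level, turns on Prdm1, whose product BLIMP1 represses the B cell program. XBP1, produced when the endoplasmic reticulum (ER) sensor IRE1 splices its mRNA, then expands the secretory machinery. ELL2 favors the secreted form of immunoglobulin mRNA, CREB3L2 is an ER-anchored transcription factor of the secretory pathway and ZBTB20 is a repressor that helps PCs to persist. Syndecan-1, the product of Sdc1 known as CD138, is the heparan sulfate proteoglycan by which PCs are sorted, and CD93 is a C-type lectin-like receptor needed to keep PCs in the bone marrow.

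The Prmt1 transcript checked the labels. It gave 3965, 3925 and 4838 normalized counts in Control 1 to 3 and 1745, 1478 and 1478 in Prmt1-null 1 to 3, so Prmt1-null iGBs held 36.9% of the Control mean (log2 fold change −1.44, SE 0.095, adjusted p = 1.11e-05). Total counts ran from 45343250 to 62774232 per library. The summed level of 7 B cell identity genes was 5827 to 6165 CPM (counts scaled to library size) in Control and 6088 to 6365 CPM in Prmt1-null iGBs. Markers of other cells were low by comparison. The 11 markers of the fibroblast feeders summed to 28 to 32.2 CPM in Control and 30.2 to 39.1 CPM in Prmt1-null iGBs, with Lum and Postn at 0 in every library. The 9 myeloid markers summed to 39.2 to 44.5 and 40.3 to 46.5 CPM, and the 7 T cell markers to 23.6 to 27.8 and 25.9 to 29 CPM, most of the latter from Lck. Adgre1, which encodes the macrophage marker F4/80, was the single marker gene of these lists past the threshold (log2 fold change 0.73, adjusted p = 0.0319). It remained so in 1 of 6 cases with 1 library left out, that without Control 3, and not in females only.

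None of the 8 genes passed the threshold, set at a mean normalized count over 100 together with an adjusted p below 0.05. Of 18268 genes tested, 216 passed it (1.18%), 106 of them higher in Prmt1-null iGBs (0.580%) and 110 lower (0.602%). Unless another test is named, adjusted p-values come from the quasi-likelihood test of edgeR, with the Benjamini-Hochberg method applied over every gene tested. All 8 genes were tested and 7 had a mean over 100, the exception being Sdc1, which could therefore not have passed. At an unadjusted p under 0.05 by the same test 2 genes were found, Irf4 and Xbp1, both with the higher mean in Prmt1-null iGBs, against 13.5% of all genes in either direction and 6.50% in that direction, and DESeq2 put 1 gene, Xbp1, past the threshold, against 5.33% of the 13247 genes that DESeq2 gave an adjusted p. Log2 fold changes, always given as Prmt1-null minus Control, ran from −0.12 to 0.52 with a median of 0.18, where the median over all genes tested was −0.0008. The value was above 0 for 7 of the 8 genes, Ell2 being the exception, and for 49.9% of all genes. For 1 of the 8 genes, Xbp1, every Prmt1-null library lay above every Control library, as was the case for 9.95% of all genes. The reverse order, found for 9.92% of all genes, was shown by none of the 8.

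**Figure D1:**
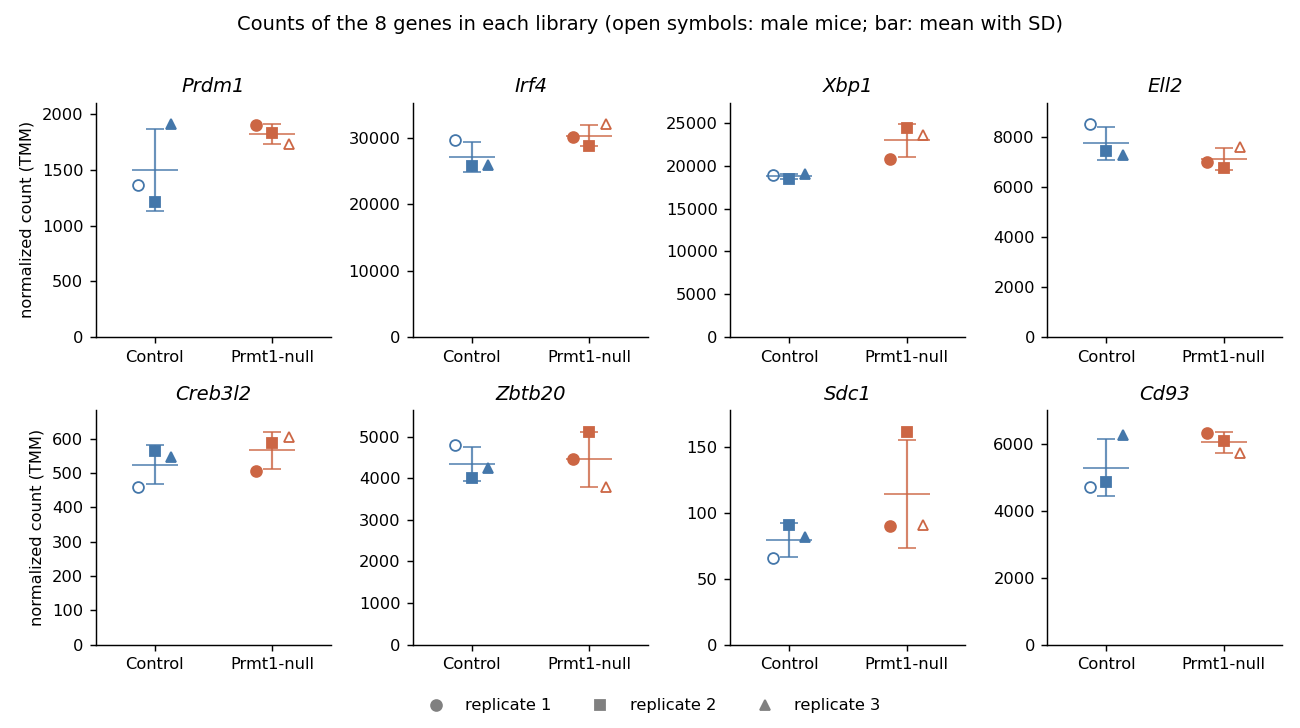
TMM-normalized counts (y axis, from 0) of the 8 genes in the 3 Control and 3 Prmt1-null libraries, with symbols for the replicates, open for male mice, and bars for the mean with SD. The groups are separate for Xbp1 only, and the Control 3 library reaches the Prmt1-null values for Prdm1 and Cd93.

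Since total RNA of cultures was sequenced, fewer cells expressing a gene and less RNA per cell cannot be told apart. To compare genes with each other, CPM was divided by the length of all exons of the gene (FPKM). Xbp1 and Irf4 were the most abundant of the genes, at 104.2 ± 1.66 and 99.9 ± 8.22 FPKM (SD, n = 3) in Control iGBs. Averaged over the 6 libraries, each had more FPKM than 96.7% and 96.4%, respectively, of the 18068 tested genes with a known length. The pair was not ordered beyond its spread, since Xbp1 was above Irf4 in 5 of 6 libraries with means 1.04 times apart in Control and 1.14 times apart in Prmt1-null iGBs. Cd93 (14.3 ± 2.3) and Ell2 (14.2 ± 1.24 FPKM in Control) came next and likewise were not ordered, Cd93 being higher in 4 of 6 libraries.

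Below them lay Prdm1 at 4.84 ± 1.19, Zbtb20 at 2.56 ± 0.237, Creb3l2 at 1.3 ± 0.141 and Sdc1 at 0.375 ± 0.0595 FPKM in Control, and each of these steps held in 6 of 6 libraries. Sdc1 was above 17.4% of tested genes and Prdm1 above 57%. Irf4 and Xbp1 mRNA were thus abundant in cultures in which Sdc1 mRNA was scarce.

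**Figure D2:**
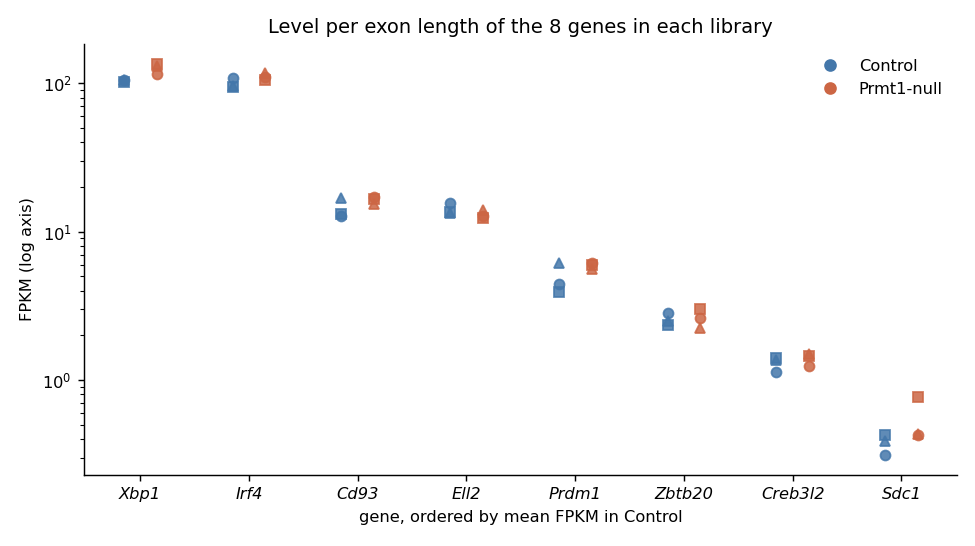
FPKM (y axis, log scale) of the 8 genes in each Control and Prmt1-null library, ordered by the Control mean. Levels span from 0.375 FPKM for Sdc1 to 104.2 FPKM for Xbp1 in Control, far more than the distance between the groups for any gene.

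Prdm1 (ENSMUSG00000038151; chromosome 10, 44437177 to 44528501, minus strand, GRCm38) encodes BLIMP1, the repressor that commits B cells to the PC fate. It gave 1366, 1214 and 1912 normalized counts in Control 1 to 3 and 1905, 1832 and 1734 in Prmt1-null 1 to 3. Control 1 and Control 2 were below all of the Prmt1-null libraries, but Control 3 was the highest of the 6, and the coefficient of variation was 24.5% in Control against 4.7% in Prmt1-null iGBs. Means were 1497 ± 366.8 and 1823 ± 85.8 (SD, n = 3), a log2 fold change of 0.29 with a 95% interval from −0.01 to 0.58 (SE 0.136, adjusted p = 0.384). A rise to 1.49-fold or a fall to 0.995-fold thus lay within the error. The call depended on 1 library. Without Control 3 the log2 fold change was 0.50 (adjusted p = 0.0212), and with any other library left out it ran from 0.15 to 0.32.

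Irf4 (ENSMUSG00000021356; chromosome 13, 30749226 to 30766976, plus strand) encodes the interferon regulatory factor upstream of Prdm1. Its counts were 29739, 25821 and 25920.0 in Control and 30208, 28852 and 32099 in Prmt1-null iGBs. Control 1, from a male mouse, fell within the Prmt1-null range, and the other two Control libraries were lower than every Prmt1-null library. The means of 27160 ± 2234 and 30386 ± 1631 (SD, n = 3) were a log2 fold change of 0.16 apart (95% interval 0.01 to 0.32, SE 0.0718, adjusted p = 0.337). With the sex of the mouse in the model the estimate stayed at 0.16, with an adjusted p of 0.153.

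For these 2 regulators the study's list of oligonucleotides holds mouse RT-qPCR primers. They are printed because they show which part of each mRNA such an assay reads, whereas the counts sum all exons. Each is written 5′ to 3′ in the orientation ordered, and no base is marked.
Prdm1 forward: ggaggatctgacccgaat
Prdm1 reverse: tcctcaagacggtctgca
Irf4 forward: ctcttcaaggcttgggcatt
Irf4 reverse: tgctccttttttggctccct
The Prdm1 primers lie in coding exon 8 of the longest matching transcript, at chr10:44439968-44439985 and chr10:44439914-44439931, and enclose 72 bases. Both Irf4 primers cross an exon junction, the forward one from exon 2 to exon 3 (chr13:30750787-30751690 with the intron) and the reverse one from exon 3 to exon 4 (chr13:30751852-30752695), and they enclose 201 bases of coding mRNA.

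Around these regulators, 15 other factors that promote PCs were tested. Batf, an AP-1 factor that partners with IRF4, was higher in Prmt1-null iGBs (1407 ± 157.3 against 2069 ± 111 counts, log2 fold change 0.56, adjusted p = 0.0149) and the other 14 did not pass. The list's median was −0.01. The next smallest p-values belonged to Fos, at −0.41 (adjusted p = 0.47), and Tcf3, which encodes E2A, at 0.09 (adjusted p = 0.542). Leaving out 1 library at a time kept Batf past the threshold in 2 of 6 cases, and it was not past it in females only.

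Among factors that hold back the PC fate, 14 rows for 13 genes were tested and none passed by edgeR at an adjusted p under 0.05. At an unadjusted p under 0.05 by edgeR 6 were found, 2 higher and 4 lower, against 13.5% of all genes. DESeq2 called 3 (Bach2, Ets1 and Id3), against 5.33% of the genes it gave an adjusted p. The median was −0.09 and 11 of the 14 values were below 0. Bach2, a repressor of Prdm1, gave 11579, 12029 and 13074 counts in Control and 10582, 10922 and 9928 in Prmt1-null iGBs, without overlap (log2 fold change −0.22, SE 0.065, adjusted p = 0.124). Bcl6, the master regulator of germinal center B cells and an opponent of Prdm1, was at 8040 ± 646.9 against 7040 ± 240.5 counts, also without overlap (−0.19, adjusted p = 0.201). Id3, an inhibitor of E proteins, had the opposite sign, at 1164 ± 115.9 against 1500.3 ± 50.6 counts (0.37, adjusted p = 0.102). Like Prdm1, Spib, an Ets factor that restrains PC genes, was set by Control 3: its counts were 21593, 23707 and 39195 in Control and 36883, 35865 and 36485 in Prmt1-null iGBs, and the log2 fold change of 0.37 (adjusted p = 0.315) became 0.69 (adjusted p = 2.46e-04) without that library. Spib was picked out after its values had been seen.

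Xbp1 (ENSMUSG00000020484; chromosome 11, 5520659 to 5525893, plus strand) was the gene of the 8 with the smallest p. It gave 18895, 18433 and 18992 counts in Control and 20853, 24471 and 23629.9 in Prmt1-null iGBs. Control libraries were tightly grouped, with a coefficient of variation of 1.59%, and all of the Prmt1-null libraries were above them. The means of 18773 ± 298.8 and 22985 ± 1893.7 (SD, n = 3) differed by 0.29 on the log2 scale (95% interval 0.15 to 0.44, SE 0.0683), a fold of 1.22, with an adjusted p of 0.0571. A 2-sided exact permutation test gave p = 0.1, the smallest value that 3 against 3 libraries allow. Xbp1 ranked 258 by p, just outside the genes called. With the same 6 libraries the value was past the threshold by DESeq2 (adjusted p = 6.76e-04), by limma-voom (0.031), without a filter on low counts (9.80e-04) and with sex as a covariate (0.0415), but not with median-of-ratios size factors in edgeR (0.0566), chromosome Y genes kept (0.0622) or the replicate block (0.0949). It was not past it with 1 library left out (log2 fold change 0.25 to 0.36, adjusted p from 0.0595 to 0.291). In females only it was not past it either (edgeR, log2 fold change 0.28, adjusted p = 0.144).

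What makes XBP1 active is a cut of 26 bases out of its mRNA by IRE1, and exon counts hold both the uncut and the cut form. The stretch around that site is given because the count difference says nothing of it. Each of a pair of CNGCNG motifs is cut in its middle, and capitals mark the 26 bases between the cuts, in exon 4 and within the coding sequence (chr11:5524279-5524304, GRCm38). The same spacing of such motifs occurs 2 times in the transcript, the other being in exon 1, and the site in exon 4 is the one known to be cut.
Xbp1 site: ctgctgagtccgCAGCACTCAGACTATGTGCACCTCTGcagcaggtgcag

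The promoter of Xbp1 is shown as the 250 bases before the RefSeq start (chr11:5520391-5520640, GRCm38.p6, plus strand), with capitals for ACGT, the core shared by many sites bound by XBP1, CREB3L2 and related basic leucine zipper factors.
Xbp1 promoter: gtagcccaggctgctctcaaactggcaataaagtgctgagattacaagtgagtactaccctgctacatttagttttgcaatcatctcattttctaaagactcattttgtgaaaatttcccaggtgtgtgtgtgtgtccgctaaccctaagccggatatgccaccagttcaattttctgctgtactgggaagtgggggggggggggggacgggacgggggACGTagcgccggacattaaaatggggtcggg
RefSeq promoters were at hand for 7 of the 8 genes, Cd93 being the exception. ACGT, which reads the same on both strands, occurred in 3 of the 7 (Xbp1 and Creb3l2 with 1 match and Ell2 with 3) and in 26.9% of 32851 promoters of that length. For Ell2 these 250 bases lie inside the first exon of a longer GENCODE M21 transcript, in its annotated 5′ UTR, so its matches are upstream of the RefSeq start but not of every annotated start. The longer palindrome TGACGTCA, which contains ACGT, occurred in that Ell2 stretch alone of the 7 and in 1.55% of all promoters.

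Of 19 tested genes of the XBP1 pathway, none passed by edgeR at an adjusted p under 0.05. The list included the kinase gene Ern1 (IRE1) and chaperone and translocon genes of the ER. At an unadjusted p under 0.05 by edgeR 3 were higher, against 6.50% of all genes. DESeq2 called 2 (Hspa5 and Pdia4), against 5.33% of the genes it gave an adjusted p. All 19 log2 fold changes were above 0, from 0.00 (rounded) to 0.22 with a median of 0.10, where 49.9% of all genes were above 0. These genes were measured in the same 6 libraries and are not independent of each other. Hspa5, the ER chaperone BiP, gave 18959, 21185 and 18326 counts in Control and 20867, 24056 and 23255 in Prmt1-null iGBs (0.22, adjusted p = 0.185). Its Control 2 value overlapped the Prmt1-null range. Pdia4, a protein disulfide isomerase, did not overlap, at 29888 ± 639.7 against 33914 ± 1883.1 counts (0.18, adjusted p = 0.201), and neither did Herpud1, which acts in ER-associated degradation (0.20, adjusted p = 0.215).

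Among 9 further markers of the secretory state, 2 rose. Txndc5, an ER protein disulfide isomerase, went from 6045 to 8258 counts (log2 fold change 0.45, adjusted p = 0.00486), and Derl3, an ER-associated degradation factor, from 1059.7 to 1596 counts (0.59, adjusted p = 0.0166). The median of the list was 0.05. Mzb1, a PC chaperone, was next by p, at 0.08 (adjusted p = 0.641), and Jchain, the joining chain of polymeric antibodies, gave −0.09 (adjusted p = 0.669). Txndc5 was past the threshold whichever 1 library was left out, and Derl3 in 3 of the 6 cases and not in females only.

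Ell2 (ENSMUSG00000001542; chromosome 13, 75706757 to 75772364, plus strand) encodes a transcription elongation factor that steers immunoglobulin mRNA to its secreted form. It was the single gene of the 8 with a log2 fold change below 0. Its counts were 8515, 7436 and 7277 in Control and 6985, 6753 and 7599 in Prmt1-null iGBs, with overlap because Prmt1-null 3 was above 2 of the Control libraries. Means of 7743 ± 673.3 and 7112 ± 437.3 (SD, n = 3) gave a log2 fold change of −0.12 (95% interval −0.28 to 0.03, SE 0.0715, adjusted p = 0.495). The snoRNA gene Gm23127 on the same strand shares 1.32% of its exon bases, and the antisense gene 1700037F03Rik 0.956%. Without Control 1 the log2 fold change was −0.05, and it ran from −0.17 to −0.08 with another library left out.

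Ell2 acts in the super elongation complex and the little elongation complex. Of 15 partner genes none passed by edgeR at an adjusted p under 0.05. At an unadjusted p under 0.05 by edgeR 3 were found, 1 higher and 2 lower, against 13.5% of all genes. DESeq2 called 2 (Aff4 and Ccnt1), against 5.33% of the genes it gave an adjusted p. Aff4, the scaffold of the super elongation complex, gave 8396, 7424 and 7287 counts in Control and 6528, 6786 and 6234 in Prmt1-null iGBs, without overlap (log2 fold change −0.24, SE 0.0667, adjusted p = 0.107). Ccnt1, the cyclin of the kinase P-TEFb, was at −0.17 (adjusted p = 0.187) and Eaf2, which binds ELL proteins, at 0.34 (adjusted p = 0.16), so that the 3 partners with the smallest p differed in sign. The median of the list was −0.01.

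Creb3l2 (ENSMUSG00000038648; chromosome 6, 37327255 to 37442146, minus strand) encodes a membrane-bound factor that is released by proteolysis to drive secretory genes. Counts of 459, 565 and 548 in Control and 505, 588 and 606 in Prmt1-null iGBs overlapped. Its log2 fold change of 0.11 had a 95% interval from −0.17 to 0.39 (SE 0.132, adjusted p = 0.782), and in the females alone it was −0.02. It ran from 0.03 without Control 1 to 0.19 without Prmt1-null 1.

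Zbtb20 (ENSMUSG00000022708; chromosome 16, 42875881 to 43642602, plus strand) encodes the BTB zinc-finger repressor that follows IRF4 in PCs. Its main row gave 4799, 4013 and 4250 counts in Control and 4476, 5121 and 3798 in Prmt1-null iGBs, the lowest and the highest value both being from Prmt1-null libraries. The log2 fold change was 0.04 (95% interval −0.17 to 0.24, adjusted p = 0.906). It changed sign when Control 2 (−0.02) or Prmt1-null 2 (−0.07) was left out, and was 0.22 in the females alone (adjusted p = 0.321). A second row with the symbol (ENSMUSG00000036279), whose identifier is not in GENCODE M21 and whose place in the genome is therefore not given, held 435, 421 and 368 counts in Control and 431, 587 and 408 in Prmt1-null iGBs (0.22, adjusted p = 0.594). The antisense gene Gm9968 shares 0.338% of the exon bases of the main row, and Mir568, on the same strand, 0.27%. Summed over both rows the means were 4762 and 4941 counts (exact permutation p = 0.7).

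Sdc1 (ENSMUSG00000020592; chromosome 12, 8771323 to 8793715, plus strand), the CD138 gene, was the least abundant of the genes, at 54 to 175 raw counts per library. Normalized counts were 65.6, 90.4 and 81.5 in Control and 90.1, 161 and 90.7 in Prmt1-null iGBs. Prmt1-null 2 stood well above the rest, and the other two Prmt1-null libraries were level with Control 2. The log2 fold change of 0.52 was the largest of the 8 and the least precise, with a 95% interval from −0.13 to 1.17 (SE 0.302, adjusted p = 0.489). Without Prmt1-null 2 it was 0.19, and by DESeq2 with a zero-centred prior 0.17, below Xbp1 and Prdm1 under that setting. A rise to 2.25-fold and a fall to 0.916-fold were the ends of the 95% interval of all 6 libraries. The fibroblast feeder markers, given above, had their highest sum in Prmt1-null 3 and not in Prmt1-null 2. Of the 9 tested, 7 had a log2 fold change above 0, with a median of 0.28, and none was past the threshold. At an unadjusted p under 0.05 by edgeR 2 were higher, without overlap, against 6.50% of all genes higher at that p. Their part in the Sdc1 value was not tested.

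CD138 carries heparan sulfate chains, so the 12 genes that build or trim them were also tested. None passed by edgeR at an adjusted p under 0.05, 0 had an unadjusted p under 0.05 and DESeq2 called 0, with log2 fold changes from −0.13 to 0.22. The smallest p-values were those of the polymerase gene Ext1 (0.22, adjusted p = 0.435) and the sulfotransferase genes Ndst1 (−0.09, adjusted p = 0.58) and Ndst2 (−0.13, adjusted p = 0.614). Of the other syndecans and the adaptor syntenin, 4 genes were tested and none passed by edgeR at an adjusted p under 0.05 (0 at an unadjusted p under 0.05, and 0 by DESeq2). Sdc4 was the most abundant syndecan gene of these cells, at 117.1 FPKM in Control against 0.375 FPKM for Sdc1, and the Sdc4 counts of 16546 ± 1311.3 and 16368 ± 565.5 (SD, n = 3) differed by less than their spread (log2 fold change −0.02, adjusted p = 0.947). Sdcbp, the syntenin gene, was at −0.08 (adjusted p = 0.56), Sdc3 at 0.11 (adjusted p = 0.799) and the scarce Sdc2 at 0.61 (adjusted p = 0.621).

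Cd93 (ENSMUSG00000027435; chromosome 2, 148436640 to 148443563, minus strand) resembled Prdm1 in how it spread over the libraries. It gave 4723, 4879 and 6267 counts in Control and 6345, 6099 and 5719 in Prmt1-null iGBs. Control 1 and Control 2 were below every Prmt1-null library and Control 3 was second highest of the 6. Means of 5290 ± 850.2 and 6054 ± 315.6 (SD, n = 3) gave a log2 fold change of 0.19 with a 95% interval from −0.00 to 0.39 (SE 0.0913, adjusted p = 0.374). Without Control 3 it was 0.34 (adjusted p = 0.0174), and from 0.12 to 0.23 with another library left out. CD93 is also a receptor of endothelial cells. The 5 endothelial markers summed to 74.7 to 79.5 CPM in Control and 76.6 to 92.6 CPM in Prmt1-null iGBs, nearly all from Pecam1, which B cells express too, and Emcn was at 0 in every library. The part of endothelial cells in the Cd93 value was not tested.

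**Figure D3:**
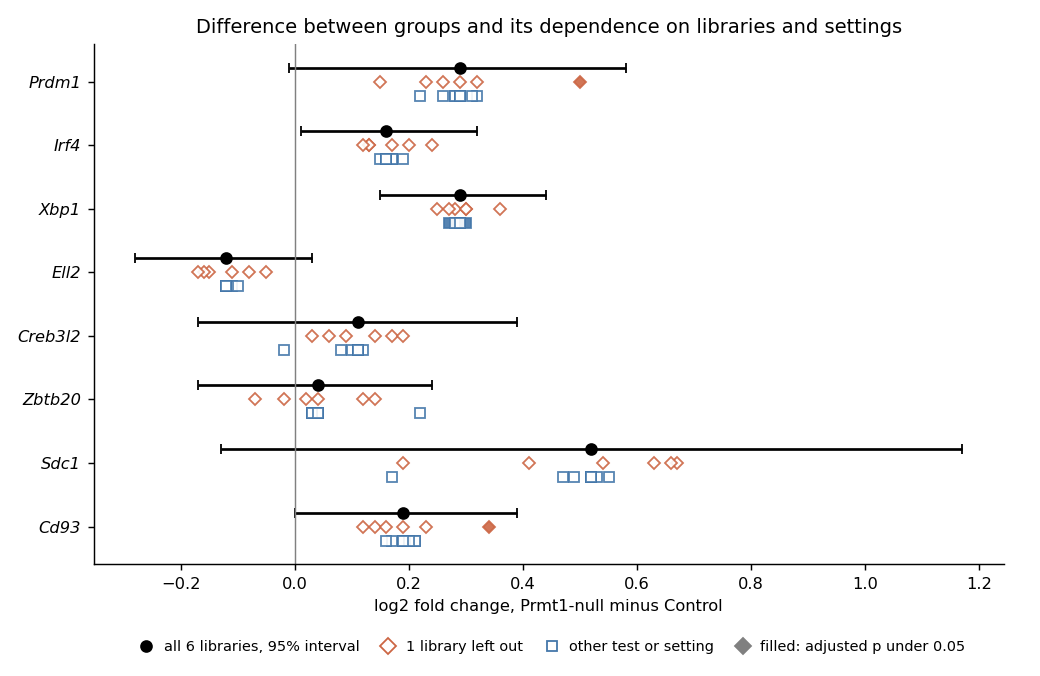
Log2 fold change (x axis, Prmt1-null minus Control) of each gene with all 6 libraries and its 95% interval, with 1 library left out (diamonds) and under other tests or settings (squares), filled where the adjusted p was under 0.05. Filled diamonds appear for Prdm1 (0.50) and Cd93 (0.34), both without Control 3, and filled squares for Xbp1 alone.

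Of 25 further surface markers of PCs, 24 were tested, 4 rose and none fell past the threshold. The log2 fold change was above 0 for 13 and below 0 for 11. At an unadjusted p under 0.05 by edgeR 7 were higher and 3 lower, and DESeq2 called 7, all with a higher mean in Prmt1-null iGBs. The 3 lower were Itga4, an integrin chain (−0.18, adjusted p = 0.281), Tigit (−0.87, adjusted p = 0.304) and Selplg, a selectin ligand (−0.14, adjusted p = 0.369), none with overlap between the groups. Cd28, a costimulatory receptor on long-lived PCs, gave 152, 139 and 198 counts in Control and 483, 519.9 and 368 in Prmt1-null iGBs (log2 fold change 1.49, SE 0.187, adjusted p = 0.00309). Cd28 is also a T cell gene. The 7 T cell markers given above, in a list that does not hold Cd28, overlapped between the groups in their sum, and the 6 of them tested had a median log2 fold change of 0.28 with none past the threshold. Their part in the Cd28 value was not tested. Ly6c2 rose by 1.12 and Ly6a, the Sca-1 gene, by 0.68 (both adjusted p = 0.00491), and these neighbors belong to a family of similar sequences, so reads may be shared among copies. Slc3a2, the CD98 heavy chain that supports amino acid uptake in PCs, gave 5771, 5794 and 5657 against 6532, 7109 and 6934 counts (0.26, adjusted p = 0.0456). It was past the threshold in 0 of the 6 cases with 1 library left out, and was lost by limma-voom, with the replicate block, with sex as a covariate and in females only. Slamf7 lay at the edge of the threshold, with 11661, 11332 and 11245 against 13581, 13653 and 13352 counts (0.25, SE 0.0556, adjusted p = 0.0506), next to Tnfrsf13b, the gene of the BAFF and APRIL receptor TACI (0.24, adjusted p = 0.068). Tnfrsf17, the gene of BCMA, a receptor of mature PCs, was at 0 to 3.78 counts and was not tested. The list's median was 0.08. Cd28, Ly6c2 and Ly6a were past the threshold whichever 1 library was left out.

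Surface molecules that B cells lose as they become PCs gave 1 call in 16 rows for 15 genes. Cr2, the complement receptor CD21, fell from 8364 ± 520.1 to 5993 ± 913 counts (log2 fold change −0.48, adjusted p = 0.0241). It was past the threshold in 2 of 6 cases with 1 library left out, and not in females only. The median was 0.08, and Cd24a was next by p, at −0.20 (adjusted p = 0.167). Of the relatives of CD93 and of the regulators, 16 of 19 genes were tested and none passed by edgeR at an adjusted p under 0.05. At an unadjusted p under 0.05 by edgeR 3 were found, against 13.5% of all genes, and DESeq2 called 0. The 3 were Prdm2 (−0.13, adjusted p = 0.303), Irf7 (−0.33, adjusted p = 0.304) and Prdm11 (−0.28, adjusted p = 0.33). Clec14a, a relative of Cd93, was at 0 in every library.

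**Figure D4:**
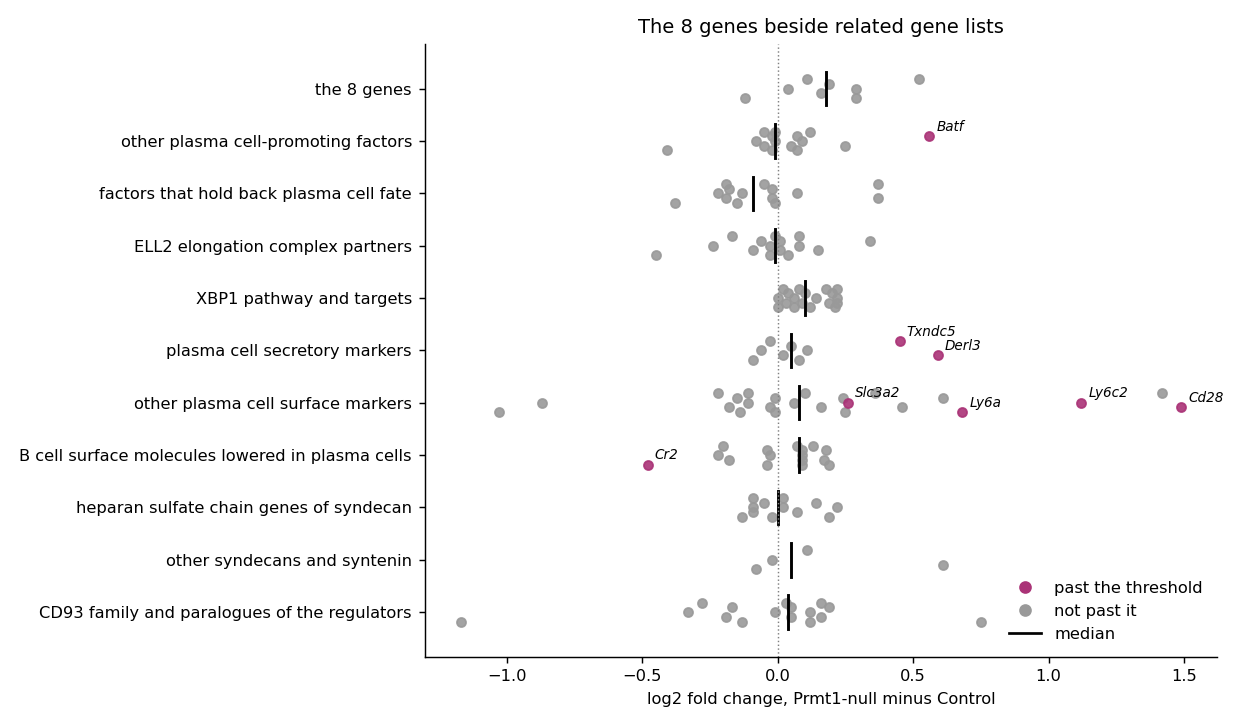
Log2 fold change (x axis, Prmt1-null minus Control) of the 8 genes and of each tested gene of 10 related lists, with genes past the threshold in color and named and a bar at each median. The 8 genes lie between −0.12 and 0.52 with none past the threshold, and the XBP1 pathway is grouped between 0.00 and 0.22.

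To describe which genes had the most similar course over the 6 libraries, each gene's log2 CPM was centered on its own mean and the root mean square difference was taken against every tested gene with a mean count over 100. The genes nearest to Xbp1 were Psma4, a proteasome subunit (difference 0.0264, log2 fold change 0.32), and Agpat9 (0.035), against a spread of 0.161 of Xbp1 itself. Irf4 was nearest to Denr (0.0199) and Gnl3 (0.0253), Prdm1 to Tomm7 (0.058) and Rrad (0.064), and Cd93 to Clcn7 (0.0322) and Rce1 (0.0392). For Ell2 these were Nup160 (0.0179) and Tubgcp3 (0.0212), for Creb3l2 Gm15964 (0.0147) and Parl (0.0232), and for Zbtb20 1700028K03Rik (0.0393) and Fbxl8 (0.0398). Sdc1, the least precise, was at 0.129 from Snx32 and 0.146 from Lyrm1. With 6 points per gene and so many genes searched, such matches are a description of these libraries.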

How the data were processed

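Total RNA of iGBs from 6 mice was sequenced after rRNA depletion with a stranded kit. Per the labels and the study's methods, the authors used Trimmomatic 0.32 for trimming, STAR 2.3.0e for alignment to mm10 and featureCounts 1.4.4 for counting on exons of Ensembl genes, where a read could have no more than 2 alignment locations and its primary one was used. The deposited table holds 1 raw count per gene and library. The strand setting of the counting is not given in the sources used here, so reads of overlapping antisense genes could be included.

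Counts were analysed in R 4.3.3 with edgeR 4.0.16 (TMM, filterByExpr with a minimum count of 10, quasi-likelihood test) without the 398 chromosome Y genes. The SE was obtained from the log2 fold change and its F statistic. DESeq2 1.42.0 and limma 3.58.1 (voom), other filters and covariates, the females alone and each library left out in turn were alternatives. Methods were tested on simulated data. A gene with 3 counts in a library corresponds to 0.0478 to 0.0662 CPM, a floor for counting error only. Positions and exon lengths are from GENCODE M21 (GRCm38), and promoters from RefSeq.

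The 8 genes and the related lists were chosen with earlier results of these data known. Named in the text are the 8 genes, Prmt1, each list's genes past the threshold and its 3 with the smallest p, the 2 nearest profiles of each gene and genes sharing its exons. Other genes (Spib, Jchain, Ets1, Sdc4, Pecam1, Itga4, Tigit, Selplg and those at 0 among them) were chosen once their values were known. 1 gene that the rule names is not reported here.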

Additional observations from a re-analysis of the deposited data

How the results depend on the processing

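Of the 8 genes, the direction of 6 held under all alternatives run, and 3 (Xbp1, Prdm1 and Cd93) passed the threshold under some of them. Xbp1 passed the threshold by DESeq2 (log2 fold change 0.29, and 0.27 with a zero-centred prior, adjusted p = 6.76e-04 in both), limma-voom (0.29, adjusted p = 0.031), no filter (0.30, adjusted p = 9.80e-04) and sex as a covariate (0.29, adjusted p = 0.0415), which made the number of the 8 genes past it 1 in place of 0. With 1 library left out that number ran from 0 to 2, the 2 being Prdm1 and Cd93 without Control 3, and log2 fold changes ran from 0.15 to 0.50 for Prdm1 and 0.12 to 0.34 for Cd93. Signs reversed for Creb3l2 in females only (−0.02) and for Zbtb20 without Control 2 (−0.02) or Prmt1-null 2 (−0.07), in a leave-one-out range of −0.07 to 0.14.

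All genes past the threshold numbered 216, against 706 by DESeq2, 705 with the prior, 675 without a filter, 113 in females only, 87 for a fold change over 1.4, and 31 to 340 with 1 library left out. For the lists, DESeq2 with or without the prior called 3 factors that hold back the PC fate, 2 partners of ELL2, 2 genes of the XBP1 pathway, 7 further surface markers and 3 surface molecules lost in PCs, where the counts had been 0, 0, 0, 4 and 1. No filter gave 2 PC-promoting factors, 3 factors that hold back the fate, 1 partner, 1 pathway gene and 2 molecules lost. Females only gave 0 PC-promoting factors, 1 secretory marker and 0 molecules lost, and a fold over 1.4 gave 1 secretory marker and 0 molecules lost. Leave-one-out ranges were 0 to 1 PC-promoting factors, 0 to 2 factors that hold back the fate, 1 to 2 secretory markers and 0 to 1 molecules lost. The cause of these differences was not tested.

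The replicate numbers were not taken as pairs. Deviations of same-numbered libraries correlated at −0.26, 0.18 and −0.29. The largest correlation of any Control with any Prmt1-null library was 0.44, between Control 1 and Prmt1-null 3, both from male mice. As deviations were taken from the mean of only 3 libraries, these values cannot decide whether libraries were handled in pairs. With the replicate block 151 genes passed, the log2 fold change of Xbp1 was 0.29 (adjusted p = 0.0949) and 0 of the 8 genes were called. With 3 mice per group, intervals of 0.15 to 0.44 (Xbp1) or −0.13 to 1.17 (Sdc1) set what could be seen. Sdc1, at 54 to 175 raw counts per library, had the widest interval of the 8.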
